A study of Mus musculus with 35 samples.

Results

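Imprinted genes are transcribed mainly from the copy inherited from one parent. The germ line of either the same or the other parent left DNA methylation on its copy of a control region. Neighbouring imprinted genes often share such a region, so that a paternally expressed gene and a maternally expressed one can be set in opposite ways by the same mark. Many of them act on growth of the fetus and the placenta, and their marks are known to be lost or gained in some cultured pluripotent cells. An array probe measures the RNA of both copies together, so the levels given here carry no allele information.

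The genes described here are 42 mouse imprinted genes outside the Dlk1-Dio3 cluster, taken by name from the array's own gene column and not by any measured value. They had 82 of the 41174 gene probes, which carry 27962 gene names in all. Of the 42 genes, 17 are paternally expressed, 24 are maternally expressed (some of them only in placenta or brain) and Gnas is expressed by transcript. Each gene is described by its brightest probe, and 38 of those 42 probes were bright enough to be tested, among 27623 tested probes. All 17 paternally expressed genes and 20 of the 24 maternally expressed ones were among the 38. Of the other 4, the transporter genes Slc22a2 and Slc22a3 and the serotonin receptor gene Htr2a were above background in 0 of 30 clones, and Gatm, the gene of an enzyme of creatine synthesis, in 15. To be tested, a probe had to be above background throughout 1 of the 7 groups fitted, and 31 of the 38 were above background in all 30 clones. The other 7 were Nnat (27 clones), Magel2 (26), Asb4 (25), Kcnq1 (28), Rasgrf1 (21), Zim1 (10) and Calcr (8), of which Calcr entered the test only through the ES arrays, and Rasgrf1 and Zim1 only through 3F-PαS-iPS.

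The clones were induced pluripotent stem (iPS) cells from 6-week-old mice carrying a Nanog-GFP-Puro reporter, in which GFP and puromycin resistance follow the Nanog gene. Their sources were PαS cells (CD45-, Ter119-, PDGFRα+ and Sca-1+ cells of bone marrow, a mesenchymal stem cell fraction), osteo-progenitors (OP, PDGFRα- and Sca-1-) and tail tip fibroblasts (TTF). Retroviruses carried Oct3/4, Sox2 and Klf4 (3F) or these with c-Myc (4F), together with a DsRed marker, and GFP+ DsRed- clones were kept on SNL feeder cells. The 6 groups (4F or 3F, each with PαS-iPS, OP-iPS or TTF-iPS) had 5 clones each, set beside 1 array each of the ES lines EB-3 and RF 8 and 1 array of each source. Clones of a group may come from one infection or animal, so the p-values measure only the spread between these clones.

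Levels are log2 processed signal minus the 75th percentile of the array, so a level of 0 is that percentile. Levels of different probes are not compared with each other, and a difference of 1 is a 2-fold difference. Between 56.6% and 65.7% of gene probes were well above background on the clone arrays, 64.3% to 71.1% for ES lines and 63.0% to 64.3% for source cells. The 30 clones lay on 8 slides of 1 scanning session, RF 8 lay alone in another, and EB-3 lay with the 3 sources in the remaining one, so clones, ES lines and sources cannot be told apart from session and scanner protocol. Slides also followed the factor sets: 1 slide of the 8 held both 3F and 4F clones. The signals of Sox2 and Nanog were low in 4F-TTF-iPS 1 and in clones 1 and 3 of 4F-OP-iPS, so results that turn on them are given with and without these 3 clones. The mean log2 level of the pluripotency list, taken relative to each gene's clone median, was -5.45 to -4.58 in those 3, but it was also -4.32 in 4F-OP-iPS 2, against -1.46 or higher in every other clone. Counts without all 4 are given with the alternatives. In bulk RNA, fewer cells of a type and less RNA per cell cannot be told apart.

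The H19 and Kcnq1ot1 probes are printed because both transcripts are non-coding and only the probe says which RNA was read. On the array's build (mm7), the brighter H19 probe lies on the minus strand at chr7:139003144-139003203, and the second at chr7:139003393-139003540, a span longer than its 60 bases. The third was listed under Kcnq1 but is named Kcnq1ot1, the antisense transcript within that gene, in the array's description, and it lies on the minus strand at chr7:139684939-139684998. It was kept apart from Kcnq1.
H19 probe: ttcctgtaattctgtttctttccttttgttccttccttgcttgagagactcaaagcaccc
H19 second probe: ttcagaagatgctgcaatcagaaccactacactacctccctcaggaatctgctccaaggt
Kcnq1ot1 probe: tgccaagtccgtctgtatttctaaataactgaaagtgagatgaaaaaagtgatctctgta

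Promoters are shown for Mest and Plagl1, the paternally expressed genes whose windows hold the hexamer TGCCGC, the core of the motif of ZFP57, a zinc finger protein known to protect imprints. The windows are the 250 bases before the RefSeq start (GRCm38.p6, plus strand), at chr6:30737800-30738049 for Mest and chr10:13090582-13090831 for Plagl1, and capitals mark the motif as read on that strand. TGCCGC on either strand was found in 8 of 34 members with a RefSeq window (23.5%), namely Calcr, Copg2, Dhcr7, Mest, Osbpl5, Plagl1, Slc22a2 and Zim1, and in 2660 of 27025 genes (9.84%). The members' windows held a median of 15 CpG, against 6 over all genes, and the motif itself holds a CpG. The match describes the letters only.
Mest: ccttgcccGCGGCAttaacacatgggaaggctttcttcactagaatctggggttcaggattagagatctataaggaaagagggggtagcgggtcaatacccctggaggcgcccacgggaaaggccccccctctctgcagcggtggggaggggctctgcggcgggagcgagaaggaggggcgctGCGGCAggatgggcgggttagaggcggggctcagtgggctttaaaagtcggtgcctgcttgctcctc
Plagl1: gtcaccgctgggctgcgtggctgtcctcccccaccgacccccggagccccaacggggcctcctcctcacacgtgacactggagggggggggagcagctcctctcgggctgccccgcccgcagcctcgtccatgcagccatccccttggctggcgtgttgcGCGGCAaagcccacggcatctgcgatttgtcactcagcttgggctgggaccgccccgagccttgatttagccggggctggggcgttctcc

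Imprinted genes varied more between clones of one group than most probes did. The median within-group SD was 0.72 over the 38 members (0.75 for paternally and 0.71 for maternally expressed ones) against 0.42 over all tested probes. Of the 38 members, 11 (28.9%) lay in the top 10% of all probes. Dim signals add to the spread, and among the 31 members above background in all 30 clones 5 (16.1%) lay there, with a median SD of 0.67, against 3.71% and 0.34 for the 20292 probes above background in all clones. Without the 3 clones low in Sox2 and Nanog, 10 of the 38 and 4 of the 31 (H19, Igf2, Mest and Cdkn1c) lay in the top 10%, and the SD of Igf2 was 1.36 and that of H19 1.01. The 11 were Nnat (SD 2.77), Igf2 (1.96), Mest (1.5), H19 (1.49), Magel2 (1.47), Asb4 (1.36), Cdkn1c (1.34), Calcr (1.34), Rasgrf1 (1.15), Slc38a4 (1.14) and Zim1 (1.10). At the other end were the histone chaperone gene Nap1l4 (0.12), the ubiquitin ligase gene Ube3a (0.16) and the tetraspanin gene Cd81 (0.18), all of which are reported as imprinted mainly in placenta or brain.

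**Figure D1:**
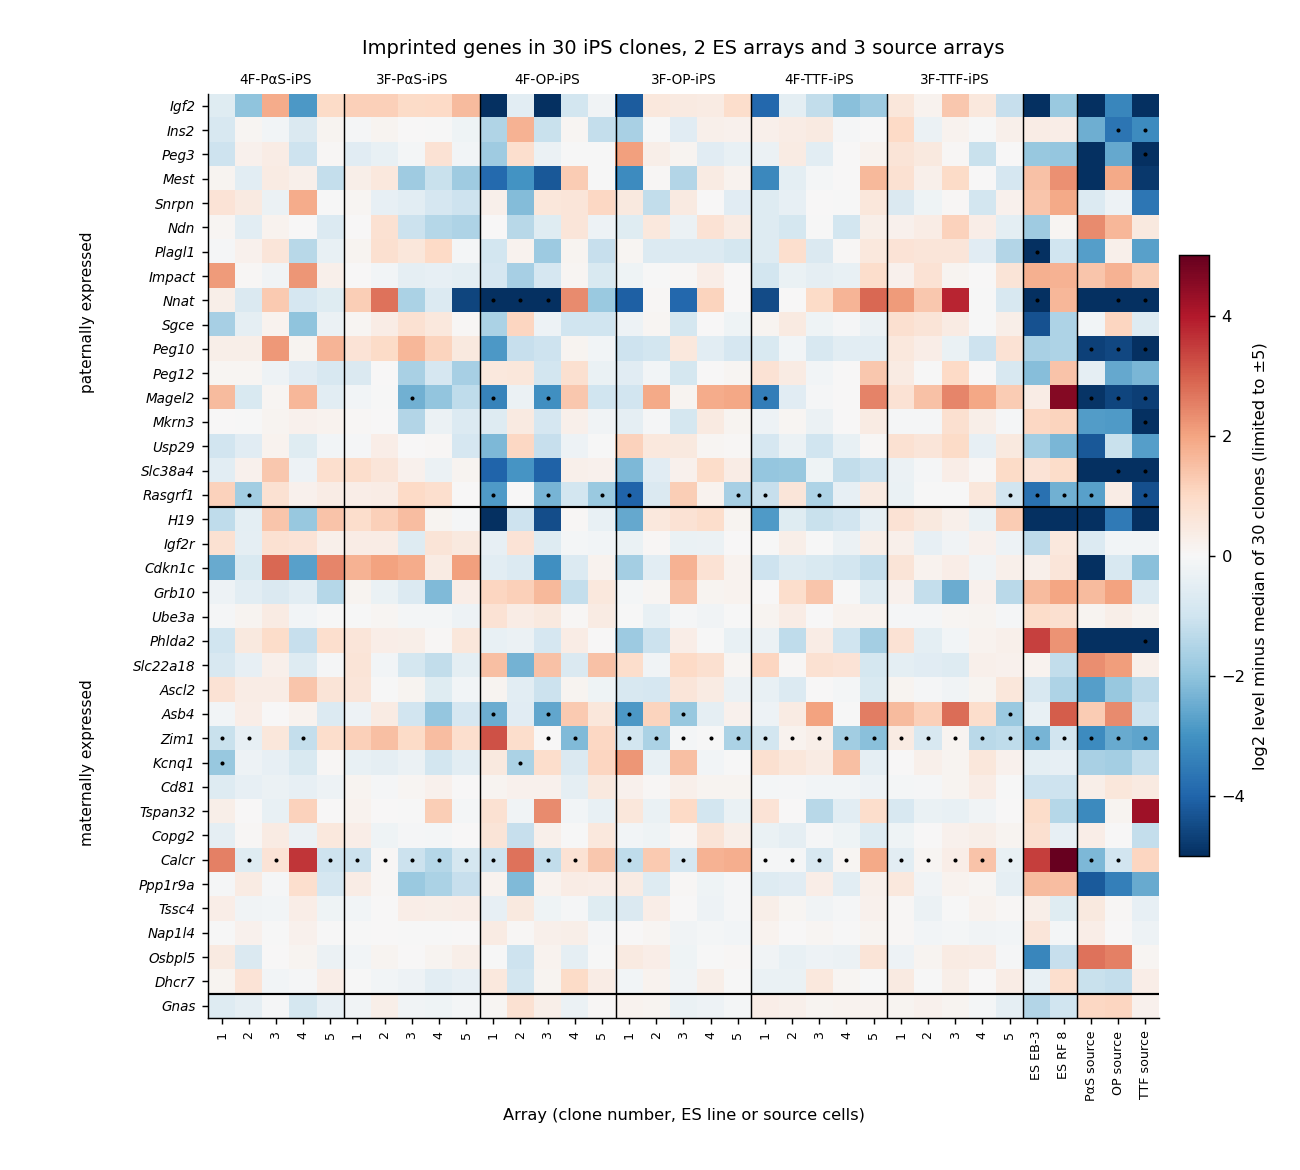
Heat map of the 38 tested imprinted genes (rows) on 35 arrays (columns: 30 clones by group, 2 ES lines, 3 sources), coloured by log2 level minus the median of the 30 clones and limited to 5 in either direction; black dots mark signals not well above background. Rows such as Nnat, Igf2 and H19 change colour within groups, while Nap1l4 and Ube3a stay pale across clones.

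Nnat, a paternally expressed gene of a small membrane protein of neural and endocrine cells, had the widest spread, higher than that of 99.96% of tested probes. Its levels in 4F-OP-iPS 1, 2 and 3 were -8.14, -7.63 and -8.39, none of them above background, while 4F-OP-iPS 4 and 5 had 1.74 and -2.48. In 3F-TTF-iPS 1 to 5 they were 1.49, 0.72, 3.18, -0.65 and -1.45. EB-3 had -6.60, not above background, and RF 8 had 1.02. Within 4F-OP-iPS the gene was thus not above background in 3 clones, as in EB-3, and above the RF 8 level in 1, and its SD rests in part on dim signals.

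Mest, a paternally expressed gene of a hydrolase-like protein of mesoderm, was low in a few clones. The levels were -0.90, 0.01, -1.23, 4.26 and 2.99 in 4F-OP-iPS 1 to 5, and -0.15, 3.04, 1.52, 3.40 and 3.18 in 3F-OP-iPS 1 to 5. In 4F-TTF-iPS 1 to 5 they were -0.22, 2.49, 2.92, 3.03 and 4.61. Low values thus came from 3F-OP-iPS 1 and from the 4 clones lowest in the pluripotency list, namely 4F-TTF-iPS 1 and clones 1 to 3 of 4F-OP-iPS. Slc38a4 was below 0 in the same 5 clones and in 4F-TTF-iPS 2. In the other 3 groups Mest ranged from 1.21 to 3.94.

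Counting over the 31 members above background in all 30 clones, 4F-OP-iPS 1 had 6 at least 4-fold below the clone median (H19, Igf2, Mest, Peg10, Slc38a4 and Usp29). 4F-OP-iPS 3 had 5 (Cdkn1c, H19, Igf2, Mest and Slc38a4), and 4F-OP-iPS 2 also had 5 but with a different set (Mest, Ppp1r9a, Slc22a18, Slc38a4 and Snrpn). 3F-OP-iPS 1, which was not among the clones low in Sox2 and Nanog, had 4 (H19, Igf2, Mest and Slc38a4), and its Peg3 was at least 4-fold above the median. 4F-TTF-iPS 1 had 3 (H19, Igf2 and Mest), as had 4F-PαS-iPS 4 (Cdkn1c, Igf2 and Sgce). Of all tested probes, 6.16% were that low in 4F-OP-iPS 1, 7.83% in 4F-OP-iPS 2, 5.13% in 4F-OP-iPS 3, 1.30% in 3F-OP-iPS 1, 4.24% in 4F-TTF-iPS 1 and 3.31% in 4F-PαS-iPS 4.

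The remaining members with wide spread or a called difference are given by their lowest and highest group means (n = 5 clones each, SD). Magel2 and Snrpn, paternally expressed genes of the Prader-Willi region, ran from -5.43 ± 1.95 in 4F-OP-iPS to -2.59 ± 0.65 in 3F-TTF-iPS and from 0.28 ± 0.42 in 3F-PαS-iPS to 1.36 ± 0.84 in 4F-PαS-iPS. Asb4, the gene of a ubiquitin ligase adaptor, ran from -4.82 ± 1.60 in 3F-OP-iPS to -3.11 ± 1.26 in 4F-TTF-iPS. Igf2r, the maternally expressed receptor gene that clears Igf2 protein, was narrow, from 2.79 ± 0.20 in 3F-OP-iPS to 3.36 ± 0.52 in 4F-PαS-iPS, beside 1.64 in EB-3 and 3.47 in RF 8. Zim1, a zinc finger gene beside Peg3, was above background in all 5 clones of 3F-PαS-iPS alone (-5.02 ± 0.31) and in 5 of the other 25 clones. Rasgrf1 ran from -5.84 ± 1.14 in 4F-OP-iPS to -3.73 ± 0.39 in 3F-PαS-iPS. In Mkrn3, Ube3a, Cd81, Osbpl5, Tssc4, Nap1l4, Copg2 and Dhcr7 the group means lay within 1 log2 unit of each other.

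Among the other paternally expressed members, Plagl1 ran from 1.62 ± 0.86 in 4F-OP-iPS to 2.81 ± 0.46 in 3F-PαS-iPS, and Sgce from 3.39 ± 0.94 in 4F-PαS-iPS to 4.68 ± 0.32 in 3F-TTF-iPS. Peg3, a zinc finger gene, ran from 0.20 ± 0.70 in 4F-PαS-iPS to 0.81 ± 1.04 in 3F-OP-iPS, and Usp29, the ubiquitin protease gene beside it, from -2.66 ± 1.24 in 4F-OP-iPS to -1.66 ± 0.53 in 3F-TTF-iPS. Peg12, Ndn and the insulin gene Ins2 ranged over single clones from -1.37 to 1.62, from -1.33 to 1.37 and from -5.09 to -1.76.

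Among the maternally expressed members, Grb10 ran from 1.39 ± 1.14 in 3F-TTF-iPS to 2.94 ± 1.09 in 4F-OP-iPS, and Phlda2 from 1.06 ± 0.83 in 4F-TTF-iPS to 2.20 ± 0.22 in 3F-PαS-iPS. Ascl2 ran from -3.48 ± 0.35 in 4F-TTF-iPS to -2.42 ± 0.41 in 4F-PαS-iPS, and Ppp1r9a, a gene of a neuronal actin-binding protein, from -1.04 ± 0.99 in 3F-PαS-iPS to -0.14 ± 0.64 in 4F-PαS-iPS. Calcr was above background in 0 of 5 3F-PαS-iPS and 0 of 5 3F-TTF-iPS clones. Single clones ranged from -5.80 to -1.67 in the potassium channel gene Kcnq1, from -2.25 to 1.64 in the transporter gene Slc22a18 and from -4.19 to -0.45 in Tspan32. Gnas ran from 3.49 ± 0.31 in 4F-PαS-iPS to 4.19 ± 0.08 in 4F-TTF-iPS.

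Between factor sets, 4 of the 38 members rose in 3F clones over the 3 sources and 0 fell (limma, Benjamini-Hochberg adjusted p under 0.05 and at least 2-fold). Of all tested probes 5.34% were called in either direction, 1179 probes higher in 3F and 296 lower. The 4 members were the paternally expressed Igf2, the insulin-like growth factor of the fetus, and Slc38a4, an amino acid transporter gene, and the maternally expressed H19, a non-coding RNA, and Cdkn1c, a cyclin-dependent kinase inhibitor gene. The median difference, 3F minus 4F, was 0.37 over the paternally expressed members (14 of 17 above 0) and -0.06 over the maternally expressed ones (9 of 20 above 0), against 0.03 over all tested probes.

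Igf2 gave the largest difference. Its levels were 3.87, 2.46, 6.31, 1.60 and 5.41 in 4F-PαS-iPS 1 to 5 against 5.65, 5.65, 5.43, 5.47 and 6.06 in 3F-PαS-iPS 1 to 5. In the OP-iPS clones they were -2.69, 3.95, -2.07, 3.55 and 4.28 (4F) against 0.33, 4.99, 4.91, 4.87 and 5.35 (3F). In the TTF-iPS clones they were 0.53, 3.99, 3.24, 2.37 and 2.70 (4F) against 5.02, 4.66, 5.83, 5.01 and 3.32 (3F). The groups overlapped in every source, and the 4F groups held most of the low clones. Over the 15 clones of each factor set the mean was 4.84 ± 1.40 in 3F and 2.63 ± 2.48 in 4F (SD), a difference of 2.20 (SE 0.71, adjusted p = 0.0279).

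H19 lies beside Igf2 and is transcribed from the other parental copy. Its levels in 4F-PαS-iPS 1 to 5 were 3.87, 4.65, 6.54, 3.26 and 6.57, and in 3F-PαS-iPS 1 to 5 they were 6.02, 6.34, 6.68, 5.29 and 5.08. The OP-iPS clones had -0.77, 4.12, 0.69, 5.21 and 4.78 (4F) and 2.57, 5.67, 5.86, 6.03 and 5.28 (3F). The TTF-iPS clones had 2.31, 4.54, 4.03, 4.17 and 4.71 (4F) and 5.88, 5.63, 5.38, 4.81 and 6.42 (3F). All 5 3F-TTF-iPS clones lay above all 5 4F-TTF-iPS clones, whereas the PαS-iPS and OP-iPS groups overlapped. Over the 3 sources H19 was higher in 3F by 1.62 (SE 0.57, adjusted p = 0.0411), and its second probe by 1.65 (adjusted p = 0.0359).

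Cdkn1c had 0.09, 1.85, 5.47, -0.11 and 5.06 in 4F-PαS-iPS 1 to 5 and 4.37, 4.62, 4.46, 3.01 and 4.66 in 3F-PαS-iPS 1 to 5. In the OP-iPS clones it had 2.08, 1.91, -0.45, 1.91 and 2.77 (4F) and 0.92, 2.10, 4.34, 3.31 and 2.77 (3F). In the TTF-iPS clones it had 1.58, 1.98, 1.84, 1.69 and 1.42 (4F) and 3.25, 2.80, 2.96, 2.45 and 2.85 (3F). The TTF-iPS groups were narrow and did not overlap, while 4F-PαS-iPS held both the highest and some of the lowest clones. Over the 3 sources the difference was 1.32 (SE 0.46, adjusted p = 0.0414).

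Slc38a4 had the same mean of 1.97 in 4F-PαS-iPS and 3F-PαS-iPS (SD 0.77 and 0.45, n = 5 each). Its levels were -2.33, -1.29, -2.39, 1.92 and 1.87 in 4F-OP-iPS 1 to 5 and -0.59, 1.10, 1.88, 2.60 and 2.02 in 3F-OP-iPS 1 to 5. In the TTF-iPS clones they were -0.26, -0.23, 1.44, 0.43 and 0.60 (4F) and 1.35, 1.59, 1.99, 1.73 and 2.62 (3F). The 3F minus 4F difference was -0.01 in PαS-iPS, 1.85 in OP-iPS and 1.46 in TTF-iPS, and whether these differ was not called by the F test given further on. Over the 3 sources it was 1.10 (SE 0.39, adjusted p = 0.0445).

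These 4 calls did not hold in several fits. With the slide as a random block the adjusted p was 0.244 for Igf2, 0.248 for H19, 0.122 for Cdkn1c and 0.263 for Slc38a4. Without the 3 clones low in Sox2 and Nanog, none was called and the differences were 1.19, 0.85, 1.12 and 0.62 in the same order. None was called without 4F-OP-iPS 2 in addition. Leaving out 4F-PαS-iPS 4 or 4F-OP-iPS 3 alone left 0 members called, and leaving out any 1 of 22 other clones left 1 to 3, as listed with the alternatives. Genes of fibroblasts and feeder cells moved beside them, with 15 of 17 tested list members above 0 in 3F minus 4F, 2 of them called (Col5a1 and Postn) and a median of 0.73. Of 8 trophoblast markers 2 were called (Cdx2 and Hand1, median 0.67), and of 8 pluripotency markers 1 (Dppa5, median 1.39). The part of these cells in the 4 differences was not tested.

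**Figure D2:**
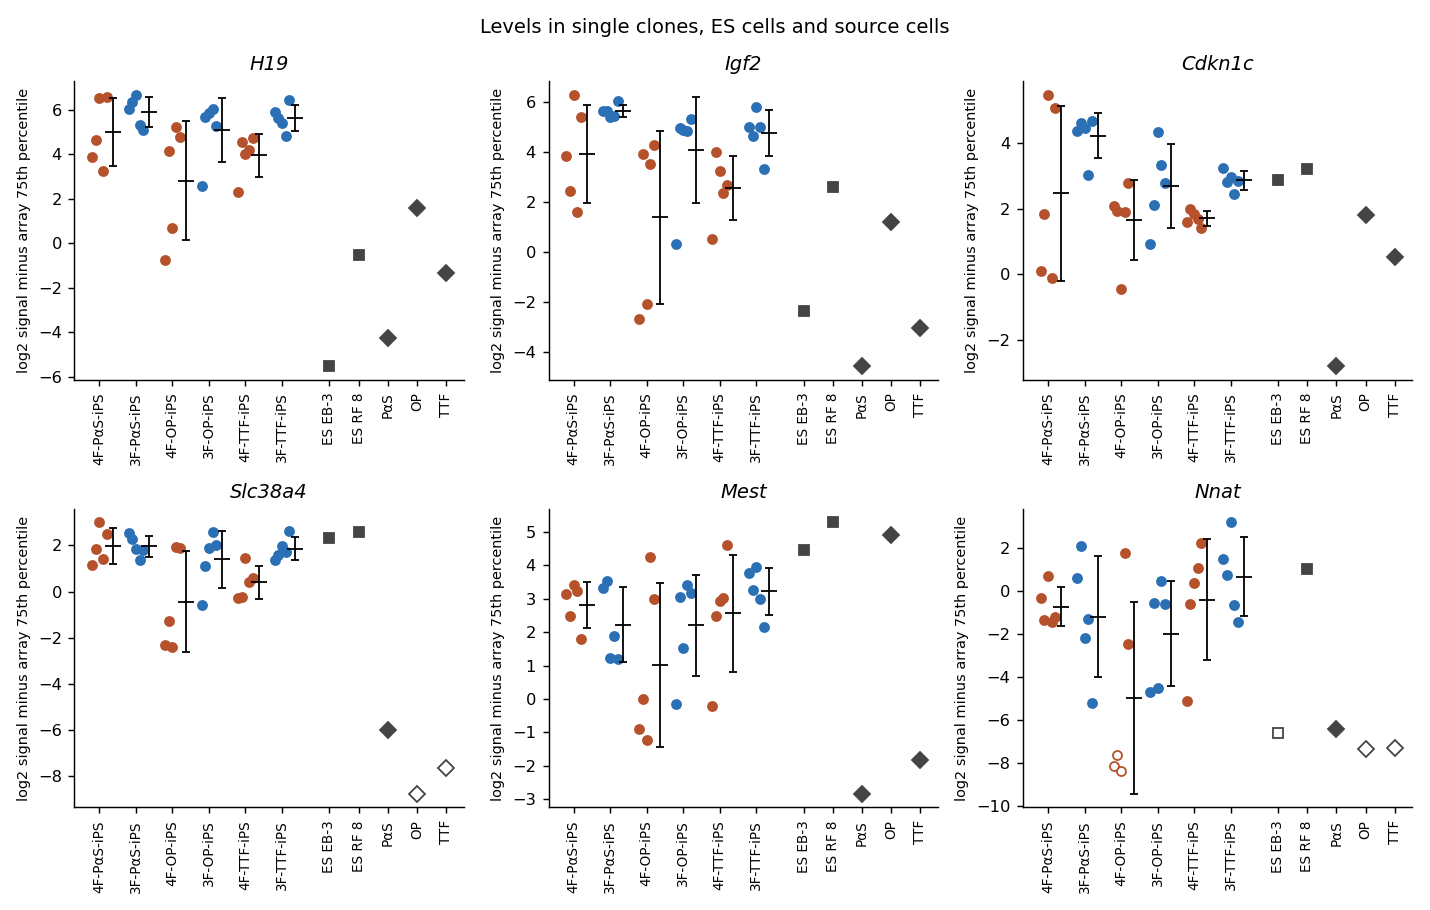
Log2 level (vertical axes, signal minus the array's 75th percentile) of H19, Igf2, Cdkn1c, Slc38a4, Mest and Nnat in each clone by group (4F orange, 3F blue; open circles, not well above background; bars, mean ± SD of 5 clones), in the ES lines (squares) and in the source cells (diamonds). Single clones of 4F-OP-iPS, such as H19 at -0.77, lie far under the others of their group.

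Within single sources no member was called by its brightest probe. In PαS-iPS 0 of 38 were called by limma, where 0.0181% of all tested probes were, and 11 of 38 had an unadjusted p under 0.05, as had 17.3% of all probes. In OP-iPS 0 were called (4.51% of all probes), and 9 had an unadjusted p under 0.05 (24.6% of all). In TTF-iPS 0 were called (5.77% of all probes), and 3 had an unadjusted p under 0.05 (26.1% of all). Dimmer Gnas probes rose in 3F-TTF-iPS, rank 4 in brightness by 1.53 (limma, adjusted p = 0.0212) and rank 5 by 1.85 (adjusted p = 0.00216). With dim signals at the lowest signal above background the differences were 1.06 and 0.84. Rank 4 entered the test only through 3F-TTF-iPS, where it was high, and rank 5 only through the ES arrays. The nearest in OP-iPS were Ube3a, lower by a log2 difference of -0.55 with an adjusted p of 0.00771 but under 2-fold, and Slc38a4 with 1.85 and an adjusted p of 0.0876. The paternally expressed members had a median of -0.01 in PαS-iPS (8 of 17 above 0), 0.57 in OP-iPS (15 of 17) and 0.58 in TTF-iPS (14 of 17). The F test of whether the factor effect differed by source called 0 of 38 (limma), where 0.532% of all probes were called, and 6 had an unadjusted p under 0.05 (17.6% of all).

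The lowest p in that F test belonged to Impact, a paternally expressed gene of a translation regulator (adjusted p = 0.0834). Its levels in 4F-PαS-iPS 1 to 5 were 4.78, 2.69, 2.46, 4.85 and 2.89, and in 3F-PαS-iPS 1 to 5 they were 2.67, 2.49, 2.21, 2.23 and 2.17. The 2 high clones, 4F-PαS-iPS 1 and 4, lay above EB-3 (4.41) and RF 8 (4.39), and the highest of the other 28 clones had 3.51. The same 2 clones had the lowest Cdkn1c of their group and lay together on a slide that held no other array, so a slide effect and the clones cannot be told apart.

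**Figure D3:**
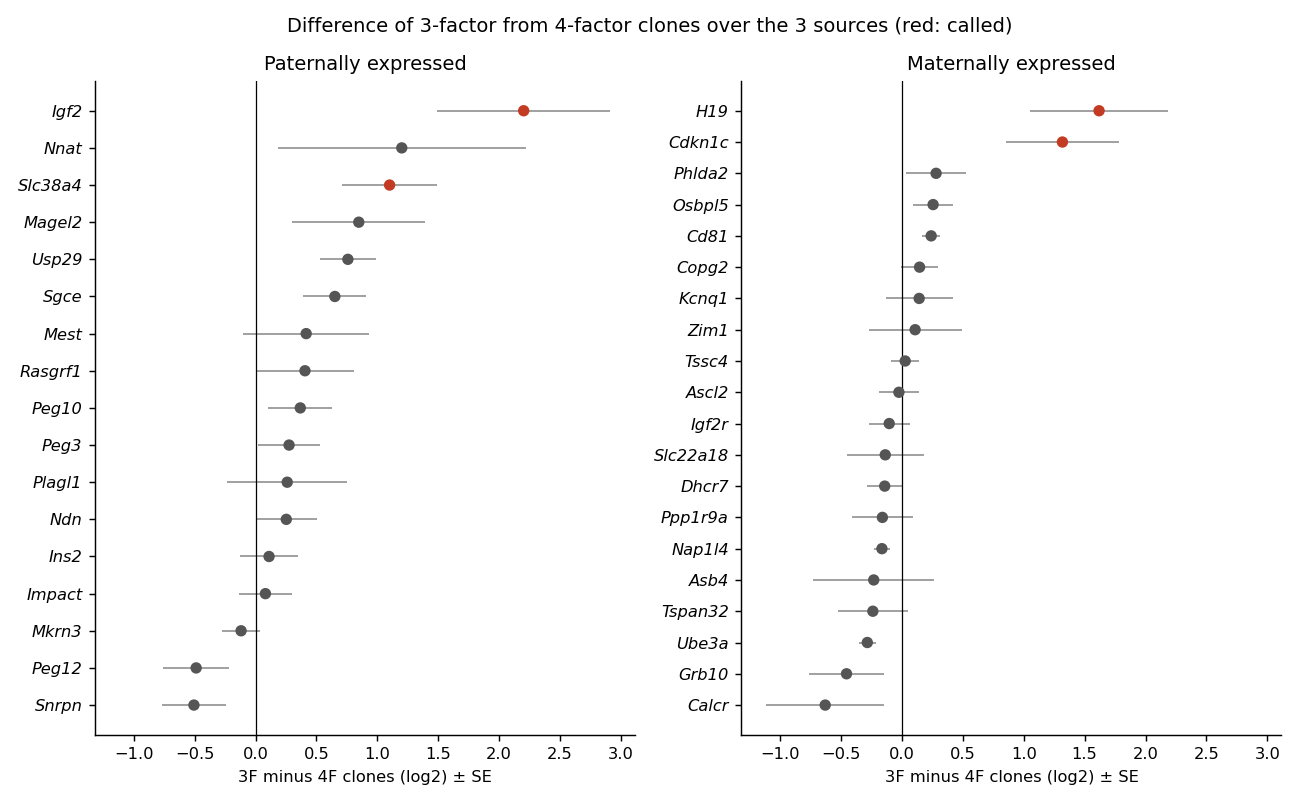
Difference between factor sets, 3F minus 4F in log2 units over the 3 sources (horizontal axis; points with SE bars, 15 clones per set), for the paternally and the maternally expressed members in separate panels. The called genes, in red, are Igf2, Slc38a4, H19 and Cdkn1c, and most paternally expressed members lie to the right of 0.

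Between sources, 1 of 38 members was called. Peg10, a paternally expressed gene of retroviral origin needed in the placenta, was higher in PαS-iPS than in OP-iPS clones. Its levels were -2.58, -2.58, -0.70, -2.73 and -1.16 in 4F-PαS-iPS 1 to 5 and -2.19, -1.91, -1.23, -1.75 and -2.37 in 3F-PαS-iPS 1 to 5. In OP-iPS they were -5.74, -4.02, -3.90, -2.75 and -3.01 (4F) and -3.92, -3.79, -2.35, -3.39 and -3.73 (3F). The clones of the sources overlapped through 1 OP-iPS clone, 3F-OP-iPS 3. The difference was 1.74 (SE 0.32, adjusted p = 0.00643), with 1.6% of all probes called. At an unadjusted p under 0.05 were 13 members and 21.5% of all probes.

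With the slide as a fixed term the Peg10 difference was 2.16 (adjusted p = 0.0279), and without the 3 clones low in Sox2 and Nanog it was 1.43 (adjusted p = 0.0522). All 8 tested trophoblast markers were higher in PαS-iPS than in OP-iPS, 1 of them called (Plac1, median 1.2), as were all 8 pluripotency markers (Zfp42 called, median 1.91) and 8 of 9 primitive endoderm markers (0 called, median 0.79). The trophoblast list's summed log2 level ranged from 2.01 to 6.16 in PαS-iPS and from 2.93 to 5.83 in OP-iPS clones, and the part of these lists in the Peg10 difference was not tested. Against TTF-iPS, Peg10 was higher in PαS-iPS by 1.22 (adjusted p = 0.0549). In PαS-iPS against TTF-iPS 0 of 38 members were called by limma (0.5% of all probes were), and 7 had an unadjusted p under 0.05 (16.6% of all). In OP-iPS against TTF-iPS 0 were called by limma (0.0217% of all probes), and 4 had an unadjusted p under 0.05 (10.2% of all).

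Against both ES lines together, 20 of the 38 members differed, 12 higher and 8 lower in clones, where 36.2% of all tested probes were called. Of the 31 members above background in all 30 clones, 18 were called, 11 higher and 7 lower; the other 2 were Calcr and Rasgrf1, which entered the test through 1 group in which they were high. Of 17 paternally expressed members 7 were higher and 4 lower, and of 20 maternally expressed ones 4 were higher and 4 lower. Gnas, the gene of the stimulatory G protein α subunit, was higher by 1.18 by its brightest probe (limma, adjusted p = 3.28e-05) and by 1.30 by its second. Its dimmer tested probes, ranks 3 to 6 in brightness, gave -0.33, 1.01, 0.04 and -1.38, so the probes of that gene disagree. They were above background in 28, 15, 14 and 6 of 30 clones. With dim signals at the lowest signal above background, rank 6 gave -0.24. This comparison rests on 2 ES arrays, from different lines and scanning sessions, and the lines themselves differed in many of these genes.

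The largest difference was that of H19, at -5.53 in EB-3 and -0.53 in RF 8 against a clone median of 5.14 (clones minus ES 7.75, SE 1.13, adjusted p = 3.28e-06). Igf2 was at -2.35 and 2.61 against a clone median of 4.47 (3.61, adjusted p = 0.0355, or 0.0872 with the slide as a random block). Plagl1, a zinc finger gene that acts on other imprinted genes, was not above background in EB-3 and at 1.35 in RF 8, with clones from 0.51 to 3.34 (4.78 with the dim EB-3 signal at the lowest signal above background, adjusted p = 0.000105). Clones lay nearer to RF 8 than to EB-3 in most cases, but in Igf2 4F-OP-iPS 1 and 3 lay beside EB-3, at -2.69 and -2.07. Against RF 8 alone, a single array, H19 was called (5.25), while Igf2 (1.13, adjusted p = 0.672) and Plagl1 (0.81, adjusted p = 0.384) were not.

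Also higher in clones were the paternally expressed Sgce (2.81), Usp29 (1.89), Peg3 (1.87) and Peg10 (1.54). Sgce encodes a sarcoglycan, and Peg3 and Usp29 share a promoter region. Rasgrf1, a paternally expressed gene of a Ras exchange factor, was not above background in either ES line and was so in 21 clones. It entered the test only through a clone group in which it was high, and with normexp background correction its difference was 0.31 (adjusted p = 0.552). Of the maternally expressed genes, Osbpl5, an oxysterol-binding protein gene (2.19), Ascl2, a transcription factor gene of the placenta (1.17), and Cd81 (1.01) were higher. With normexp the calls of Ascl2 (0.29, adjusted p = 0.438), Peg10 (0.59, adjusted p = 0.157) and Usp29 (0.93, under 2-fold) were lost. Peg3 was at -1.42 in EB-3 and -1.46 in RF 8, and all 30 clones lay above both, from -1.27 to 2.56.

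Lower in clones were the maternally expressed Calcr, Phlda2 (-3.02), Grb10 (-1.91) and Ppp1r9a (-1.79) and the paternally expressed Mest (-2.53, adjusted p = 0.0413, or 0.0841 with the slide as a random block), Impact (-1.77), Snrpn (-1.74) and Mkrn3 (-1.17). The calls of Mest and Mkrn3 were lost with normexp. Calcr, the calcitonin receptor gene, was at -3.74 in EB-3 and -0.60 in RF 8 and was above background in 8 of 30 clones, so its difference depends on how dim signals are set (-4.77, or -3.48 with dim signals at the lowest signal above background). Phlda2, a gene that restrains growth of the placenta, was at 5.26 in EB-3 and 4.06 in RF 8, and all 30 clones lay below, the highest at 2.74 (adjusted p = 1.70e-05). The second Ppp1r9a probe gave -0.22 (adjusted p = 0.745), so the probes of that gene disagree. Grb10, an adaptor gene that restrains insulin signalling, was at 3.89 and 4.27, above 29 of 30 clones. The Kcnq1ot1 probe, at -4.87 in EB-3 and -4.19 in RF 8, was above background in 4 of 30 clones and entered the test only through the ES arrays. With dim signals set to each array's lowest signal above background, its difference was -1.23.

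Tested against each ES line alone, 17 members were called against EB-3 (36% of 28163 tested probes were) and 14 against RF 8 (30.9% of 30007), the latter out of 39 with Gatm, which was called but entered only through the RF 8 array, where it was high. In these tests the ES side is 1 array, assumed to vary like the clones of a group, so the calls carry no replicate check of the ES line. In the same direction against both were 9, namely H19, Cd81, Osbpl5, Peg3 and Usp29, which were higher, and Impact, Mkrn3, Phlda2 and Calcr, which were lower, although Calcr entered only through the ES arrays. All 30 clones lay on one side of both ES arrays in 8 of 38 members (Cd81, Gnas, Mkrn3, Osbpl5, Peg3, Phlda2, Ppp1r9a and Ube3a), where 24.4% of all tested probes did so. In 11 of the 38 the clone mean lay above one ES line and below the other. For this count, and for that of members called against both lines, the share over all tested probes was not determined.

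The ES lines differed at least 4-fold in 11 members (6 paternally and 5 maternally expressed), against 10.2% of all tested probes, with 1 array of each and no test. RF 8 was higher in 10 of the 11, as it was in 2069 of the 2816 probes (73.5%) that differed at least 4-fold over the whole array. RF 8 exceeded EB-3 by 32-fold in H19, 31.1-fold in Igf2, at least 247-fold in Plagl1 and at least 197-fold in Nnat. The fold was 18.7 in Magel2 and 11.8 in Peg12, genes of the Prader-Willi region, whereas Mkrn3, whose probe lies between theirs, differed 1.05-fold. Tspan32, a tetraspanin gene, was the exception.

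**Figure D4:**
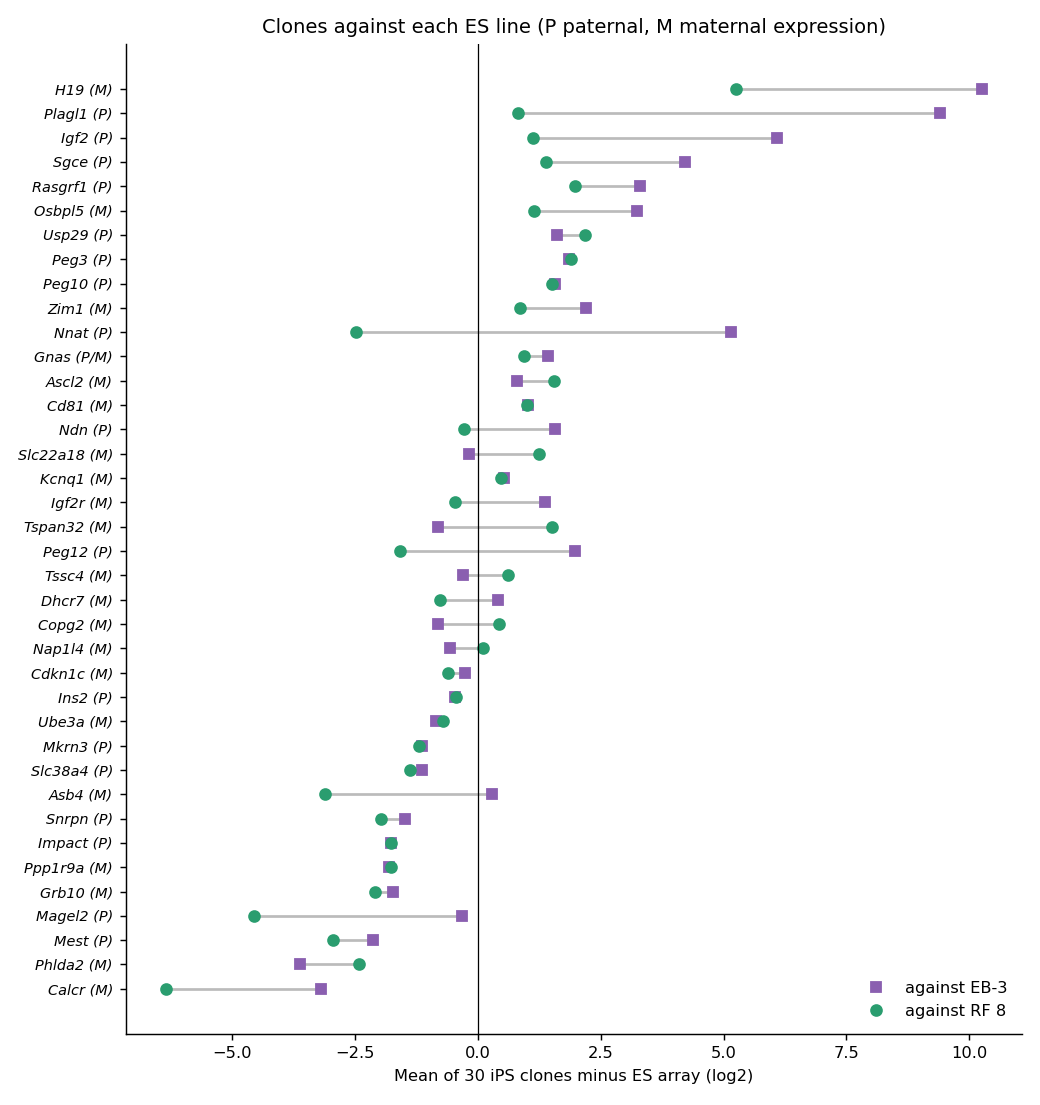
Mean of the 30 clones minus each ES line in log2 units (horizontal axis; squares, EB-3; circles, RF 8) for the tested imprinted genes. The symbols lie far apart for H19, Igf2, Plagl1 and Nnat, for which EB-3 was at least 31.1-fold below RF 8, and close together for Peg3 and Impact.

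Markers of other cell types moved with this comparison. The summed log2 level of the 18 fibroblast and feeder genes was 6.44 to 8.74 in clones, 7.39 in RF 8 and 2.69 in EB-3, where 7 of the 18 (Col3a1, Col5a2, Col6a1, Fap, Lum, Postn and Prrx1) were not above background. Of 17 tested genes of that list 13 were higher in clones (median 3.50), as were 9 of 9 primitive endoderm markers (median 4.78) and 5 of 8 trophoblast markers (median 3.12). All 8 pluripotency markers were below 0 in clones minus ES, 2 of them called (Tdgf1 and Zfp42, median -2.77). Their part in the differences from the ES lines was not tested. Of 12 tested genes that keep or read imprints, 7 were lower in clones and 0 higher, where 19% of all tested probes were called lower and 17.2% higher. The largest differences were those of Zfp42, a gene of pluripotent cells that is also on the pluripotency list (-5.34), the methyltransferase gene Dnmt3b (-2.98), Uhrf1, which guides maintenance methylation (-2.16), and the Polycomb gene Eed (-1.73).

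Across the 30 clones, neighbouring members were compared in 7 pairs, and 4 of the 7 passed (permutation tests with Benjamini-Hochberg adjustment over the 7). How often pairs of other genes would pass in these clones was not determined. H19 and Igf2 rose and fell together, with r = 0.92 and rho = 0.77 (permutation p = 1e-05 for each, the smallest that 100000 resamples can give), and r = 0.82 without the 2 clones farthest in H19. Cdkn1c and Phlda2, both maternally expressed from one cluster, had r = 0.74 and rho = 0.70 (permutation p = 1e-05 and 3e-05; 0.72 without 2 clones). Ndn and Magel2, neighbours in the Prader-Willi region, had r = 0.76 and rho = 0.77 over the 26 clones with Magel2 above background (permutation p = 1e-05 and 5e-05; 0.68 without 2). Peg3 and Usp29 had r = 0.74 and rho = 0.66 (permutation p = 4e-05 and 0.00019; 0.59 without 2). The adjusted p was 2.33e-05 for the first 3 pairs and 7e-05 for Peg3 and Usp29.

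The H19 and Igf2 pair is of opposite parental origin, while in the Peg3 and Usp29 and the Ndn and Magel2 pairs both genes are paternally expressed. With each group centred, r was 0.87 for H19 and Igf2, 0.75 for Cdkn1c and Phlda2, 0.72 for Ndn and Magel2 and 0.78 for Peg3 and Usp29. Centred within slides, it was 0.91, 0.80, 0.68 and 0.87. Without the 3 clones low in Sox2 and Nanog, r for H19 and Igf2 was 0.77. Snrpn and Ndn (r = 0.28, rho = 0.15, permutation adjusted p = 0.196), Sgce and Peg10 (r = 0.25, rho = 0.23, adjusted p = 0.223) and Mest and Copg2 (r = 0.00, rho = -0.05, adjusted p = 0.994) did not pass. Within slides Sgce and Peg10 did, with r = 0.40 (permutation adjusted p = 0.0435).

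**Figure D5:**
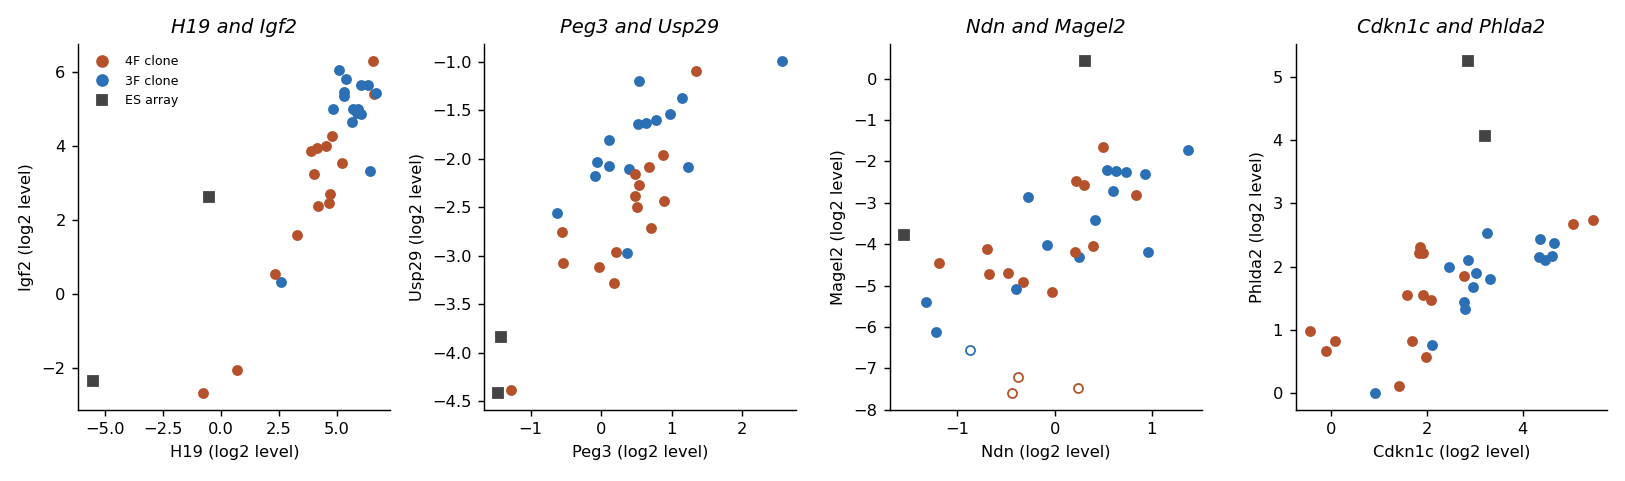
Log2 levels of neighbouring imprinted genes plotted against each other, 1 point per clone, for H19 and Igf2, Peg3 and Usp29, Ndn and Magel2, and Cdkn1c and Phlda2. Points rise from lower left to upper right in all 4 panels (r from 0.74 to 0.92), and a few clones at the lower left carry part of the H19 and Igf2 relation.

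Some members also followed the fibroblast and feeder list across clones. Of 36 members with enough clones, 9 passed over the 36 (permutation tests, Benjamini-Hochberg), 7 positively, namely Mest (r = 0.70), Igf2 (0.66), H19 (0.61), Magel2 (0.58), Ndn (0.55), Nnat (0.55) and Slc38a4 (0.55), and 2 negatively, Ube3a (-0.56) and Tspan32 (-0.51). What share of all tested probes would pass was not determined. With normexp background correction Tspan32 did not pass (r = -0.40, permutation adjusted p = 0.117). With quantile normalization Ube3a did not (r = -0.37, permutation adjusted p = 0.130). The 7 positive ones passed in both. With each group centred, and again within slides, 11 passed. Ube3a was not among them (permutation adjusted p = 0.143 and 0.0889), while Mkrn3, Asb4 and Kcnq1 were. Without the 3 clones low in Sox2 and Nanog, Mest (r = 0.56) and Ndn (0.62) passed. Magel2 passed too, but its 26 clones above background never included those 3. In the others r was 0.49 for Nnat, 0.45 for Igf2, 0.35 for H19, 0.28 for Slc38a4, -0.37 for Ube3a and -0.37 for Tspan32.

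Set against the source cells, with 1 array a source and no test, more members were at least 4-fold below the clones in a source than above them. All tested probes leaned the same way. The filter for tested probes read clones and ES lines only, so genes seen in sources alone are not among the 38. At least 4-fold from the mean of all 30 clones in either direction were 21 of 38 members on the PαS array (17.7% of all probes), 17 on the OP array (18.6%) and 19 on the TTF array (19.6%). Of these members 3, 5 and 1 were higher in the PαS, OP and TTF sources, as were 5.03%, 6.57% and 7.06% of all tested probes. Of the 17 paternally expressed members, 12, 9 and 14 were lower in the PαS, OP and TTF sources. Of the 20 maternally expressed ones 6, 3 and 4 were, and of all tested probes 12.1% to 12.7%. At least 4-fold lower than that mean in all 3 sources were 11 members: H19, Igf2, Ins2, Peg3, Nnat, Peg10, Magel2, Mkrn3, Phlda2, Slc38a4 and Ppp1r9a. Of all tested probes 6.15% were.

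H19 was at -4.25 in the PαS source, 1.60 in OP and -1.33 in TTF, and the mean of the 10 clones of each source exceeded it 820-fold in PαS, 5.08-fold in OP and 69.7-fold in TTF. Igf2 was at -4.57, 1.21 and -3.02, with 660-fold, 2.89-fold and 103-fold. Of these pairs the OP source lay nearest to the clones, and 2 of 10 OP-iPS clones were below their source in H19 and 3 of 10 in Igf2. Slc38a4 was 252-fold higher in PαS-iPS clones than in their source, and at least 125-fold and 215-fold higher in OP-iPS and TTF-iPS clones, whose sources were not above background. Phlda2 was higher 78.9-fold, 145-fold and at least 277-fold.

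Mest went the other way in one source. It was at -2.84 in the PαS source, 4.90 in OP and -1.83 in TTF, so the mean of the 10 clones was 41.0-fold above the source in PαS and 26.5-fold in TTF. In OP it was at 0.10 of the source level, and all 10 OP-iPS clones lay below the source. At least 4-fold higher in a source than the mean of all clones, among the 38 and besides Mest in OP, were Ndn, which encodes a growth-suppressing protein, in PαS, Osbpl5 and Slc22a18 in PαS and OP, Asb4 and Grb10 in OP, and Tspan32 in TTF. Of the 4 members not tested, Gatm was at 0.32 in TTF, at least 44.7-fold above the clone mean, and Slc22a2, not above background in any clone, was at least 3.32-fold and 3.55-fold higher in PαS and OP. The sources' fibroblast list summed to 9.56 to 10.3, above every clone.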

How the data were processed

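RNA of 30 iPS clones, 2 ES lines and 3 source cell samples was hybridised by the authors to 1-colour Agilent arrays (probe positions on mm7). The deposited intensity values are Feature Extraction processed signals, background-subtracted and not normalized between arrays, with 3 protocol versions that follow the scanning sessions. A deposited table of log2 values, centred per probe by the authors with GeneSpring, served as an alternative only. Each array's log2 processed signal was centred on its 75th percentile. Control spots and outlier flags were left out, and spots of one probe averaged. Probes (27623 of 41174) were tested if they exceeded background throughout 1 or more groups. A limma 3.58.1 model (R 4.3.3) held 7 groups, 6 of clones and the ES lines (32 arrays), with Benjamini-Hochberg adjustment over all tested probes. A probe was called at an adjusted p under 0.05 and at least 2-fold. Source arrays were compared with clones, and the ES lines with each other, at 4-fold without a test, with dim signals set to the lowest signal well above background. Clones were also tested against each ES line alone. "At least" folds use the higher of that lowest signal and the dim probe's own. Correlations used 100000 permutations (scipy 1.17.1). The clone numbers only name clones. The scripts were tested on simulated data. The members and gene lists were chosen with earlier results of these data known. Group or clone values were given for members called in a comparison, for those in the top 10% of within-group SD, and for H19, Igf2, Igf2r, Peg3, Mest, Snrpn and Cdkn1c. Other members were given by ranges, counts and shared tests, and those singled out among them were chosen after their values were seen. Of other lists, at most 4 genes were named per comparison, by size among those called. Alternatives covered background correction, normalization, the dim filter, a floor, the second probe, slide terms, the clone number as a block and left-out clones, of which 2 sets were chosen after seeing the data. One further item is not reported here.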

Additional observations from a re-analysis of the deposited data

Results flagged for a closer look

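In 139 groups of 5 clones, a clone far from the other 4 of its group (Dixon's test, 95% limit) was found 12 times. The groups were those with all 5 clones above background, among members given with group or clone values. Some of those members were chosen for a wide spread or a call in these same data, so no chance rate is set beside the count. H19 was at 2.57 in 3F-OP-iPS 1 (the other 4 at 5.28 to 6.03) and at 2.31 in 4F-TTF-iPS 1 (4.03 to 4.71). Igf2 was at 0.33 in 3F-OP-iPS 1 (4.87 to 5.35), and Plagl1 in that clone at 2.42 (1.46 to 1.66). Cdkn1c was at 3.01 in 3F-PαS-iPS 4 (4.37 to 4.66) and at -0.45 in 4F-OP-iPS 3 (1.91 to 2.77). Snrpn was at -1.35 in 4F-OP-iPS 2 (1.08 to 1.85), and Ppp1r9a in that clone at -2.42 (-0.03 to 0.15). Gnas was at 4.26 in 3F-PαS-iPS 2 (3.77 to 3.87), and Igf2r at 2.33 in 3F-PαS-iPS 3 (3.31 to 3.59). Grb10 was at 3.78 in 3F-OP-iPS 3 (2.22 to 2.5), and Osbpl5 at 3.31 in 4F-TTF-iPS 5 (2.29 to 2.49).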

How the results depend on the processing

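No called difference changed sign under any alternative run. The 4 called in 3F against 4F over the sources became 0 with the slide as a random block, without the 3 clones low in Sox2 and Nanog, without the 4 clones lowest in pluripotency markers and without the 2 clones of one slide (the last 2 sets chosen after seeing the data), 1 without the filter on dim probes and 7 without a fold minimum. The 1 in PαS-iPS against OP-iPS became 3 with the slide as a fixed term, 3 with second probes, 2 without the 2 clones of one slide and 0 without the 3 clones. The 0 in PαS-iPS against TTF-iPS became 1 with quantile normalization, 1 without the 4 clones and 2 without the 2 clones of one slide, and the 0 in 3F against 4F in OP-iPS became 1 without a fold minimum. Of the fibroblast correlations, 3 of the 9 (with Magel2, whose clones did not change) passed without the 3 clones. The cause was not tested. In clones against ES, the 20 became 15 with normexp (with Magel2 and without Ascl2, Mest, Mkrn3, Peg10, Rasgrf1 and Usp29), 17 with EB-3 alone, 14 with RF 8 alone and 18 with the slide as a random block (without Igf2 and Mest).

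Leaving out each clone in turn gave 0 to 4 for 3F against 4F over the sources: 0 without 4F-PαS-iPS 4 or 4F-OP-iPS 3, 1 without 4F-PαS-iPS 1 or 2, 3F-PαS-iPS 1, 2 or 3, 4F-OP-iPS 1, 3F-OP-iPS 3, 4 or 5, 4F-TTF-iPS 1 or 4, or 3F-TTF-iPS 2 or 5, and 2 without 3F-PαS-iPS 5, 3F-OP-iPS 2, 4F-TTF-iPS 2 or 5, or 3F-TTF-iPS 1 or 3, and 3 without 4F-OP-iPS 2, 4F-TTF-iPS 3 or 3F-TTF-iPS 4. It gave 1 to 4 for PαS-iPS against OP-iPS (4 without 4F-OP-iPS 2 or 4, 2 without 4F-PαS-iPS 2, 4F-OP-iPS 5, or 3F-OP-iPS 3 or 4), 0 to 1 for PαS-iPS against TTF-iPS (1 without 4F-PαS-iPS 2, 4F-OP-iPS 1, 2 or 4, 3F-OP-iPS 3 or 3F-TTF-iPS 5), 0 to 1 for 3F against 4F in PαS-iPS (1 without 4F-PαS-iPS 3) and 0 to 3 in OP-iPS (3 without 4F-OP-iPS 4, 1 without 4F-OP-iPS 2 or 5 or 3F-OP-iPS 1). The F test gave 0 to 2 (2 without 4F-OP-iPS 4, 1 without 4F-PαS-iPS 2 or 3 or 4F-TTF-iPS 5), and clones against ES 19 to 22.

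With the clone number as a block, 4 members were called in 3F against 4F over the sources, 1 in PαS-iPS against OP-iPS, 17 in clones against ES and 0 in the others. The numbers did not pair the clones: 16 of 75 same-number pairs had a correlation over 0.1 (median -0.00), and 5 of 30 clones correlated best with their own number. A fixed slide term could be fitted only for TTF-iPS 3F against 4F and PαS-iPS against OP-iPS. Dim signals limit Calcr, Zim1, Rasgrf1, Asb4, Magel2 and Nnat, and 2 ES arrays limit all comparisons with ES cells.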

Other observations

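Of 13 tested imprinted genes outside the 42, 5 were called in clones against ES (limma), where 36.2% of all tested probes were called. The proteoglycan gene Dcn (5.98, adjusted p = 9.20e-06), H13 (1.28) and Sfmbt2 (1.17) were higher in clones, and Ddc (-1.64) and Casd1 (-1.11) were lower. In PαS-iPS against OP-iPS, Sfmbt2 was higher (1.24, adjusted p = 0.00682) and Pon3 lower (-1.78, adjusted p = 0.00835). Among 12 tested genes that keep or read imprints, Dppa3 was higher in 3F over the sources (2.37, adjusted p = 0.0495), and the methyltransferase cofactor gene Dnmt3l was higher in PαS-iPS than in OP-iPS (2.39, adjusted p = 0.0371). In OP-iPS, Uhrf1 was lower in 3F than in 4F (-1.05, adjusted p = 0.00435).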
